A study of Homo sapiens with 6 samples.

Results

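The genes described here build, load and switch on HLA class I, the peptide display of nearly every human cell. They are the heavy-chain genes HLA-B, HLA-C, HLA-E and HLA-F, the light-chain gene B2M, the peptide transporter genes TAP1 and TAP2, the loading gene TAPBP and the transactivator gene NLRC5. They were chosen by their symbols among the genes of the deposited tables, 9 of 30327 in the count table, and all 9 were also in the FPKM table (29912 genes) and passed the filter on low counts that left 15801 genes to test. Poly(A) RNA of SK-BR-3, an established HER2-positive breast cancer cell line, was sequenced in 6 libraries. In 3 of them (si_NC) the cells had received a control siRNA without a target, and in the other 3 (si_GRB2) an siRNA against GRB2, an adaptor that links receptor tyrosine kinases to Ras, and the question was which transcripts differ once GRB2 is reduced. All cells were of the 1 line and all were transfected, so both groups share the transfection. Titles and genotype fields call the treated libraries GRB2 overexpression, whereas their descriptions name si_GRB2. GRB2 itself was at a mean of 126 CPM (TMM-normalized counts, scaled to library size) in si_NC and at 28.5 CPM in si_GRB2, lower by the quasi-likelihood test of edgeR (log2 fold change −2.15 ± 0.04 SE, adjusted p = 3.87e-15), so the descriptions were followed. Nothing in the labels says that the 3 libraries of a group came from separate cultures, and the p-values then measure only the spread between these libraries.

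A class I molecule on the cell surface is a heavy chain, encoded in the major histocompatibility complex (MHC), paired with β2-microglobulin from B2M and holding a short peptide. The peptides are cut in the cytosol by the proteasome, whose immunoproteasome form carries interferon-inducible catalytic subunits. TAP1 and TAP2 form the pump that carries peptides into the endoplasmic reticulum, where tapasin (TAPBP), calreticulin and PDIA3 hold the empty heavy chain at the pump until it is filled. HLA-B and HLA-C are classical heavy chains that show peptides to CD8 T cells and are ligands of killer-cell receptors. HLA-E mainly shows leader peptides of other class I chains to the NKG2 receptors of natural killer cells, and HLA-F is a nonclassical chain of narrower use. NLRC5 acts at a conserved promoter module bound by RFX, CREB/ATF and NF-Y factors, while interferon acts through IRF1 and NF-κB through κB sites in many of the same promoters.

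The reads assigned to genes numbered 24810378 in the shallowest library and 28532480 in the deepest. Log2 CPM of any 2 libraries correlated with r from 0.992 to 0.995 within a group and from 0.988 to 0.992 between groups, as a description across genes, and no library stood apart. The identity of the line was checked on a marker list of HER2 amplification and luminal epithelium. Of its 7 genes, CDH1, the epithelial cadherin, had at most 3 reads in any library, and the other 6 were abundant. Of these 6, 5 were lower and ERBB2 higher in si_GRB2, against 15.5% lower and 15.2% higher among all genes tested, and KRT18, KRT8 and EPCAM, keratins and an epithelial adhesion protein, fell by 0.55, 0.41 and 0.55 on the log2 scale. The part of this shift in the results below was not tested. Of 8 leukocyte markers, 7 were in the table and PTPRC, which defines leukocytes, had at most 1 read in any library. Their summed level was 64.1 to 66.2 CPM in si_NC and 53.8 to 58.1 CPM in si_GRB2, and without CSF1R, the receptor of a macrophage growth factor (log2 fold change −0.21), 2.03 to 3.07 CPM and 1.55 to 2.22 CPM. The 6 fibroblast and endothelial markers summed to 34.2 to 35 CPM and 22.6 to 26.1 CPM, and without CDH5, the endothelial cadherin (log2 fold change −0.61), to 5.56 to 7.67 CPM and 5.48 to 6.36 CPM.

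With GRB2 reduced, 5 of the 9 genes were lower (adjusted p under 0.05), 0 were higher and 4 did not pass the test. Over all genes tested, 15.5% were lower and 15.2% higher by the same rule, 30.6% in either direction. The 5 were HLA-E, B2M, TAP1, TAP2 and TAPBP, with log2 fold changes from −0.43 to −0.14. None was a differentially expressed gene (DEG: more than 1.5-fold higher or lower, with an adjusted p under 0.01), against 2.52% of all genes tested, 1.69% lower and 0.829% higher. The median log2 fold change was −0.17 over the 9 genes and 0.00 over all genes. In 6 of the 9, every si_GRB2 library was below every si_NC library, a pattern that 21.2% of all genes showed, and in 0 of the 9 was every si_GRB2 library above, a pattern that 21.1% of all genes showed. Among all genes 50.5% of the calls were lower by the count test, whereas limma on log2(FPKM + 1) put 40.4% of its calls lower and called HLA-E alone of the 9. In cell populations of this kind, fewer cells carrying a transcript and less of it per cell cannot be told apart.

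**Figure D1:**
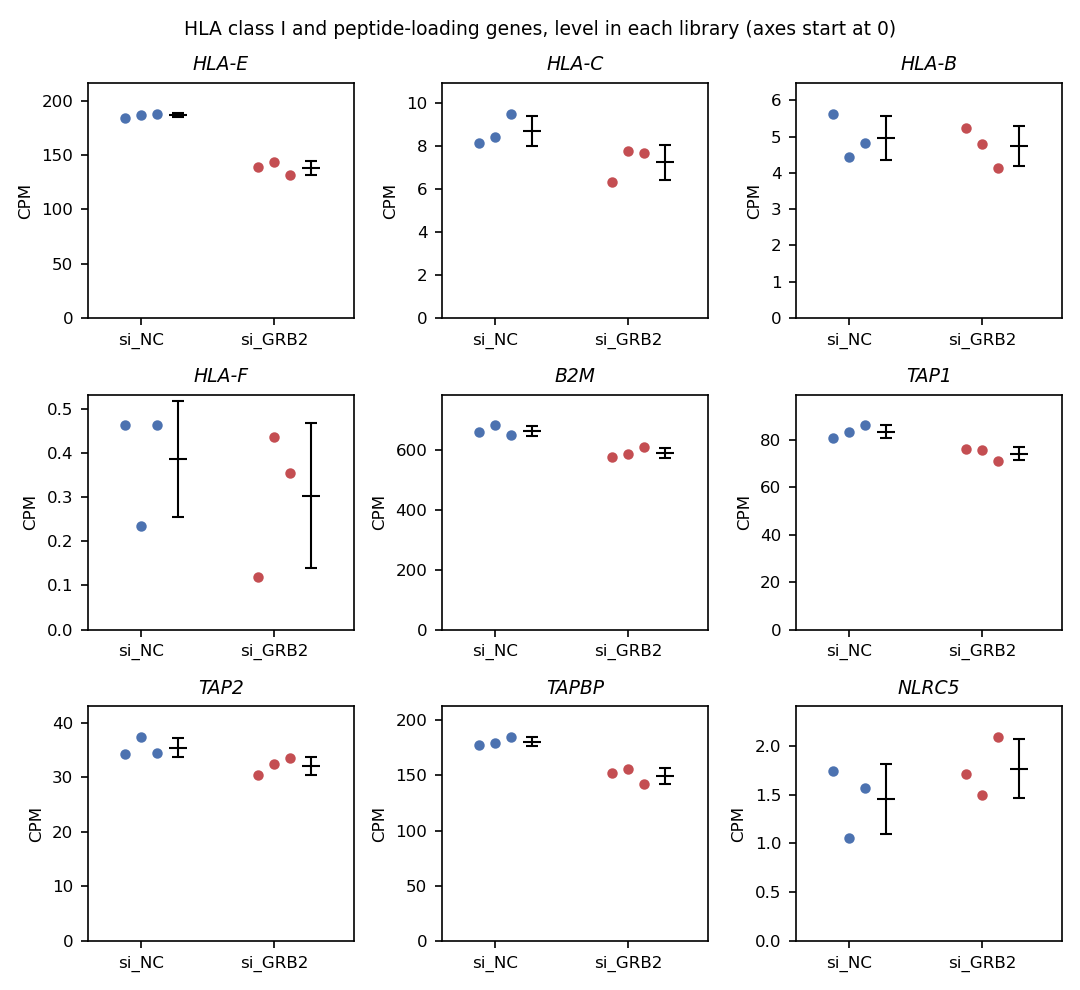
Level of each of the 9 genes in CPM (vertical axes, starting at 0) in the 3 si_NC and 3 si_GRB2 libraries, 1 point per library, with the mean and SD of each group beside the points. HLA-E, HLA-C, B2M, TAP1, TAP2 and TAPBP have every si_GRB2 point below every si_NC point, while HLA-B, HLA-F and NLRC5 overlap.

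Promoters of 7 of the 9 genes, all but HLA-E and NLRC5, were in the RefSeq table used (build GRCh38.p14), and the 250 bases before the transcription start were searched on both strands. The letters GAAA, then any 2 bases, then GAAA, the core of the interferon-stimulated response element, were in the window of 5 of the 7 genes, B2M, TAP1, TAP2, TAPBP and HLA-F, and in 3.02% of all 35116 windows. The windows of the 4 of these genes that fell are shown, picked by both the letters and the fall, so any link between the 2 was not tested. They lie at chr15:44711267-44711516 on the plus strand for B2M, and on the minus strand at chr6:32853705-32853954 for TAP1, chr6:32838740-32838989 for TAP2 and chr6:33314079-33314328 for TAPBP. Each reads 5′ to 3′ toward the start, and capitals mark the bases covered by a match on either strand.
B2M: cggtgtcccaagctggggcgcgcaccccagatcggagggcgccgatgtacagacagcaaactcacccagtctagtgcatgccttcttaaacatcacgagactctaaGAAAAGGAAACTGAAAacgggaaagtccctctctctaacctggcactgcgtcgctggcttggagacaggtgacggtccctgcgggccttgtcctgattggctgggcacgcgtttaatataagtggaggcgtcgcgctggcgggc
TAP1: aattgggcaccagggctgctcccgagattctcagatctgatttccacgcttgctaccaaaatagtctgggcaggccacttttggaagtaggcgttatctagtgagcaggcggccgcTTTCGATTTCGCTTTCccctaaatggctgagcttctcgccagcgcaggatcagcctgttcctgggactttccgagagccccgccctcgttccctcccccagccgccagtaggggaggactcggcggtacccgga
TAP2: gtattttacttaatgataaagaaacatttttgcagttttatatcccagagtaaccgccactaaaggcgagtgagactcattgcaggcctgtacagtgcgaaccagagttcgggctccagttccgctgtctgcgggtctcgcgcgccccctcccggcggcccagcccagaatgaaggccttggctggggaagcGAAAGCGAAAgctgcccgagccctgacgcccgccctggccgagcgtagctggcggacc
TAPBP: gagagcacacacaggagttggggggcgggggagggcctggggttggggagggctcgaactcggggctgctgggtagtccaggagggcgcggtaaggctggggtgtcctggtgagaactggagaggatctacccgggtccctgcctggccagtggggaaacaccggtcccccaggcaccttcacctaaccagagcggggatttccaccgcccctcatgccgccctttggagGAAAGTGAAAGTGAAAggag
In B2M, TAP1 and TAPBP 2 matches overlap, so that the capitals run on. The match nearest to the start began 14 bases before it in TAPBP and 58 bases before it in TAP2, and the nearer matches of TAP1 and B2M began 128 and 138 bases before it. In TAP1 the matches are on the other strand, so that TTTC stands in place of GAAA, and a further TAP1 start in the table had no match in its window. The κB consensus was in the windows of 5 of the 7 genes, HLA-B, HLA-C, B2M, TAP1 and TAPBP, against 6.88% of all windows, and it did not overlap the capitals. The windows of HLA-B and HLA-C held no exact match to the GAAA letters searched. Looser forms of the response element were not searched, so its absence there was not tested. The letters TGACG, of the CREB/ATF site, were in 4 of the 7 (21.2% of all windows), and CCAAT, of the NF-Y site, in 5 (32%). Among 5 genes of the immunoproteasome and its PA28 activator, the response-element letters were in 2, PSMB10 and PSME2, and the κB consensus in 0. PSMB8 and PSMB9, whose falls are given below, had neither in their windows. The PSMB9 window, chr6:32853942-32854191 on the plus strand, overlaps the far end of the TAP1 window, which reads the other way. The TAP1 matches thus lie upstream of the PSMB9 start as well, beyond the 250 bases searched. Absence outside the windows was not tested. A match is a description of the letters and not of binding.

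HLA-E (ENSG00000204592.9, 8 exons, plus strand of chromosome 6 from 30489509 to 30494194 on GRCh38) was the 1 heavy chain that passed the test. It was at 184, 187 and 188 CPM in the si_NC libraries and at 139, 144 and 132 CPM in the si_GRB2 libraries. The groups did not overlap, and the lowest si_NC library was above the highest si_GRB2 library. The means were 186 ± 1.8 CPM and 138 ± 6.13 CPM (SD, n = 3 each). The log2 fold change was −0.43 (standard error 0.03, 95% interval −0.5 to −0.36, adjusted p = 8.25e-08 from edgeR), 0.741 times the control level. On the FPKM scale, which divides by gene length, HLA-E was at 49.2, 50.8 and 53.8 in si_NC and at 38.2, 41.6 and 37.6 in si_GRB2. HLA-E kept its direction and its call in every alternative fit, with log2 fold changes from −0.46 to −0.38.

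The classical heavy chains were far less abundant in these tables, at mean FPKM of 2.8 and 1.32 in si_NC, and neither passed the test. HLA-C (ENSG00000204525.17, minus strand of chromosome 6, 31268749 to 31272130) was at 8.17, 8.44 and 9.52 CPM in si_NC and at 6.32, 7.76 and 7.7 CPM in si_GRB2. Every si_GRB2 library was below every si_NC library, yet by little, and the log2 fold change of −0.26 (standard error 0.11, 95% interval −0.49 to −0.04) did not pass after adjustment (edgeR, adjusted p = 0.0761). HLA-B (ENSG00000234745.13, minus strand of chromosome 6, 31353872 to 31367067) was at 5.63, 4.43 and 4.81 CPM in si_NC and at 5.25, 4.81 and 4.15 CPM in si_GRB2. The HLA-B groups overlapped, with a log2 fold change of −0.07 (standard error 0.14, 95% interval −0.36 to 0.22, edgeR adjusted p = 0.762), whose sign turned to 0.03 without si_NC replicate 1 and to 0.02 without si_GRB2 replicate 3. HLA-B had 105 to 158 reads per library. HLA-F (ENSG00000204642.14, plus strand of chromosome 6, 29722775 to 29738528) had 13, 6 and 13 reads in si_NC and 3, 12 and 9 reads in si_GRB2. Its groups overlapped and the interval of its log2 fold change ran from −1.33 to 0.64 (estimate −0.34, edgeR adjusted p = 0.639), with the estimate at 0.02 without si_GRB2 replicate 1.

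HLA class I genes are near-identical in stretches and highly variable between people, which bears on these counts, because only uniquely mapped reads were used and aligned to the reference alleles. Of windows of 150 bases along the reference transcript, those within 4 mismatches of the transcript of another of 19 class I genes and pseudogenes were 0 of 1387 for HLA-B, 5 of 1393 for HLA-C, 17 of 1331 for HLA-F and 59 of 2399 for HLA-E. The nearest other gene was at a median of 11 mismatches for HLA-B and HLA-C and of 71 for HLA-E. The alleles carried by SK-BR-3 were not analysed here, and reads that differ too much from the reference would not have been counted, and the part of this in the levels of HLA-B and HLA-C was not tested. Summed over HLA-B, HLA-C, HLA-E and HLA-F, which lessens the effect of reads moving between these genes, the levels were 199, 199.7 and 203 CPM in si_NC and 151, 157 and 144 CPM in si_GRB2, a log2 ratio of −0.41. Over all 11 HLA class I rows of the table the log2 ratio was −0.40. HLA-E held 86.3% to 89.8% of the reads on those rows, and without it HLA-B, HLA-C and HLA-F summed to 14.3, 13.1 and 14.8 CPM against 11.7, 13 and 12.2 CPM, a log2 ratio of −0.19.

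B2M (ENSG00000166710.21, plus strand of chromosome 15, 44711358 to 44718851, 4 exons), the chain that every class I molecule shares, was at 659, 683 and 649 CPM in si_NC. It was at 578, 587 and 610 CPM in si_GRB2, every library below every control. The means were 664 ± 17.6 CPM and 592 ± 16.7 CPM (SD, n = 3 each), 0.891 times the control level. The log2 fold change was −0.17 (standard error 0.03, 95% interval −0.22 to −0.11, edgeR adjusted p = 0.000236), and limma on the FPKM values gave −0.12 with adjusted p up to 0.238. Within a library, the FPKM of HLA-E was 0.522, 0.51 and 0.541 times that of B2M in si_NC and 0.45, 0.457 and 0.402 times in si_GRB2. HLA-E was thus lower relative to B2M in each si_GRB2 library than in any si_NC library (exact permutation p = 0.1, two-sided, the smallest that 3 against 3 libraries allow).

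Peptide transport and loading fell together with B2M, by small steps. TAPBP (ENSG00000231925.12, minus strand of chromosome 6, 33299694 to 33314284), which bridges the heavy chain to the pump and favours tightly bound peptides, was at 177, 179 and 185 CPM in si_NC and at 152, 156 and 142 CPM in si_GRB2. The log2 fold change of TAPBP was −0.27 (standard error 0.04, 95% interval −0.34 to −0.19, edgeR adjusted p = 2.48e-05), next to that of HLA-E in size among the 5 that passed. TAP1 (ENSG00000168394.12, minus strand of chromosome 6, 32845209 to 32853816) was at 80.7, 83.4 and 86.2 CPM in si_NC and at 76.1, 75.6 and 71 CPM in si_GRB2. Its groups did not overlap either, with a log2 fold change of −0.17 (standard error 0.04, 95% interval −0.25 to −0.08, edgeR adjusted p = 0.00383). Limma on log2(FPKM + 1) gave TAPBP and TAP1 adjusted p of 0.096 and 0.335.

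TAP2 (ENSG00000204267.16, minus strand of chromosome 6, 32821833 to 32838739), the partner of TAP1 in the pump, was at 34.3, 37.4 and 34.5 CPM in si_NC and at 30.4, 32.3 and 33.5 CPM in si_GRB2. The highest si_GRB2 library was close below the lowest si_NC library, and the log2 fold change of −0.14 (standard error 0.05, 95% interval −0.25 to −0.03) stood near the threshold (edgeR adjusted p = 0.0465). This call was lost with DESeq2 (adjusted p = 0.128), and without si_NC replicate 2 (0.174), si_GRB2 replicate 1 (0.186) or si_GRB2 replicate 2 (0.0971). It was lost as well by limma on the FPKM values (adjusted p up to 0.604), so that 7 of 14 alternative fits lost it. TAP2 shares 2023 exon bases on the same strand with a read-through gene, XXbac-BPG246D15.9, on which 5219 reads were counted over the 6 libraries against 5385 on TAP2. How reads in the shared bases were divided is not given in the sources used here. The read-through gene had a log2 fold change of −0.11 (standard error 0.05, edgeR adjusted p = 0.103). TAP1 shares exon bases on the opposite strand with PSMB8-AS1, whose reads came to 5.65% of those of TAP1.

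NLRC5 (ENSG00000140853.16, plus strand of chromosome 16, 56989485 to 57083531, 49 exons), the transactivator of these promoters, was scarce in every library. It had 49, 27 and 44 reads in si_NC and 43, 41 and 53 reads in si_GRB2, and the groups overlapped. The log2 fold change of 0.26 (standard error 0.22, 95% interval −0.21 to 0.74, edgeR adjusted p = 0.426) did not pass, and NLRC5 was the 1 gene of the 9 whose estimate was above 0.

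The order of the levels per length was the same in both groups down to HLA-B. In si_NC the FPKM means were 97.7 for B2M, 51.2 for HLA-E, 28.7 for TAPBP, 14.5 for TAP1, 4.46 for TAP2, 2.8 for HLA-C and 1.32 for HLA-B. Each of these was separated from its neighbours in every library. NLRC5 and HLA-F followed at 0.0967 and 0.07 FPKM. Their ranges over the libraries overlapped, although NLRC5 was above HLA-F within every library. When CPM were divided by the length of the reference transcript instead, they changed places in si_NC (0.215 and 0.262 CPM per kilobase). In si_GRB2 they did not (0.26 and 0.205 CPM per kilobase). By this measure B2M was at 704 CPM per kilobase in si_NC against 73.1 for HLA-E, a wider gap than on the FPKM scale. The FPKM of B2M imply a length of 6694 bases, while its annotated exons cover 3121 bases and its reference transcript 943, so the distance of B2M from the others depends on the length used.

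**Figure D2:**
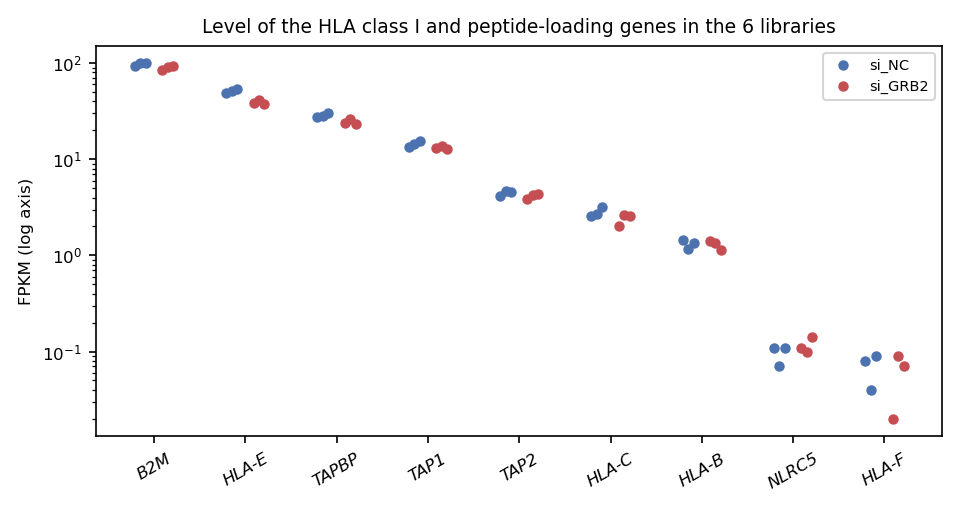
FPKM of the 9 genes (vertical axis, log scale) in each of the 3 si_NC and 3 si_GRB2 libraries, ordered by the si_NC mean, 1 point per library. B2M and HLA-E lie at the top, at si_NC means of 97.7 and 51.2 FPKM, and NLRC5 and HLA-F lie together at the bottom, at 0.0967 and 0.07 FPKM.

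The immunoproteasome, which cuts peptides suited to class I, fell as a group. All 5 genes of the list of its subunits and of the PA28 activator were lower, against 15.5% of all genes, and their median log2 fold change was −0.46. PSMB8, which replaces PSMB5 in the catalytic ring and lies beside TAP1 in the MHC, was at 39.6, 38.8 and 40.4 CPM in si_NC and at 24.6, 20.5 and 21.5 CPM in si_GRB2. Its level in si_GRB2 was far below the controls and it was a DEG (log2 fold change −0.84, standard error 0.06, edgeR adjusted p = 2.73e-08). PSMB9, the replacement of PSMB6, was at 5.88, 5.45 and 5.63 CPM against 4.57, 3.46 and 2.69 CPM, and was a DEG as well (−0.66, standard error 0.16, edgeR adjusted p = 0.00462), a status it lost in 4 of 6 fits with 1 library left out. PSMB10, the replacement of PSMB7, fell by 0.46 (standard error 0.12, edgeR adjusted p = 0.00722), while the PA28 subunits PSME1 and PSME2 fell by 0.18 and 0.20 on the log2 scale (standard error 0.03 each). The exons of PSMB9 overlap those of PSMB8-AS1 on the same strand, with reads at 96.1% of its own, and those of PSMB8 on the opposite strand, with 670% of its own. PSMB10 overlaps CTC-479C5.12 on the same strand, which had 214% of the reads of PSMB10 and a log2 fold change of −0.36.

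Of the standard subunits that the inducible ones replace, none was called lower. Of these 3, PSMB7 and PSMB6 were higher, by 0.17 (standard error 0.03, edgeR adjusted p = 0.000362) and 0.10 (standard error 0.03, edgeR adjusted p = 0.0313) on the log2 scale, against 15.2% of all genes higher. The call of PSMB6 was lost without si_NC replicate 1 or 2 or si_GRB2 replicate 1 or 2 (edgeR adjusted p up to 0.162). PSMB5, named here after its values were seen as the partner of PSMB8, had a log2 fold change of 0.04 with a 95% interval from −0.02 to 0.1. The FPKM of PSMB8 relative to PSMB5 was 0.0707, 0.0739 and 0.0738 in si_NC and 0.0437, 0.0373 and 0.0379 in si_GRB2. For PSMB9 relative to PSMB6 the means were 0.0191 ± 0.0011 and 0.0112 ± 0.0028, and for PSMB10 relative to PSMB7 0.0313 ± 0.0033 and 0.0203 ± 0.0017 (SD, n = 3 each). In all 3 pairs every si_GRB2 ratio was below every si_NC ratio (exact permutation p = 0.1 each, two-sided, the smallest possible here).

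**Figure D3:**
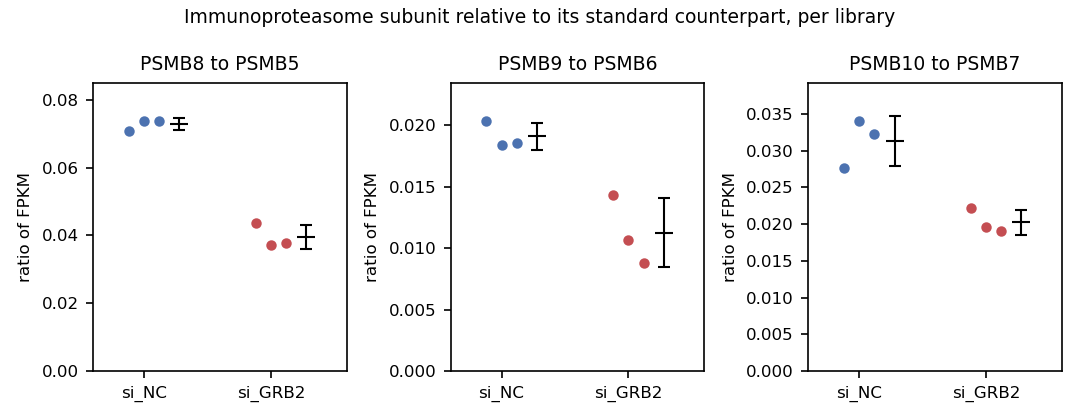
FPKM of each inducible immunoproteasome subunit divided by that of its standard counterpart (vertical axes, starting at 0) in the 3 si_NC and 3 si_GRB2 libraries, with group mean and SD. The ratio is lower in every si_GRB2 library for all 3 pairs, at means of 0.0396 against 0.0728 for PSMB8 to PSMB5.

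The folding and editing machinery of the endoplasmic reticulum went both ways. Of 10 genes, 4 were higher, 1 was lower and 5 did not pass, against 15.2% higher and 15.5% lower among all genes, with a median log2 fold change of 0.01. Of the 10, 2 were DEGs, against 2.52% of all genes. GANAB, the catalytic subunit of glucosidase II, which trims the sugars that bring new heavy chains to their chaperones, was at 206, 206 and 208 CPM in si_NC and at 394, 391 and 398 CPM in si_GRB2. This was a DEG, 1.91 times the control level (log2 fold change 0.93, standard error 0.03, edgeR adjusted p = 4.2e-13). Calreticulin (CALR) and PDIA3, partners of tapasin in the loading complex, rose by 0.14 and 0.13 on the log2 scale (standard errors 0.02 and 0.03), and UGGT1, the folding sensor, by 0.13 (standard error 0.04). The call of UGGT1 was lost without si_NC replicate 2 or 3 or si_GRB2 replicate 2 or 3 (edgeR adjusted p up to 0.0864). TAPBPL, a tapasin-related editor that acts outside the complex, was at 6.28, 5.61 and 5.28 CPM in si_NC and at 3.74, 3.71 and 2.88 CPM in si_GRB2. It was the 1 gene of the list that fell (log2 fold change −0.73, standard error 0.14, edgeR adjusted p = 0.000794). TAPBPL shares exon bases on the opposite strand with VAMP1, which had 318% of its reads.

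**Figure D4:**
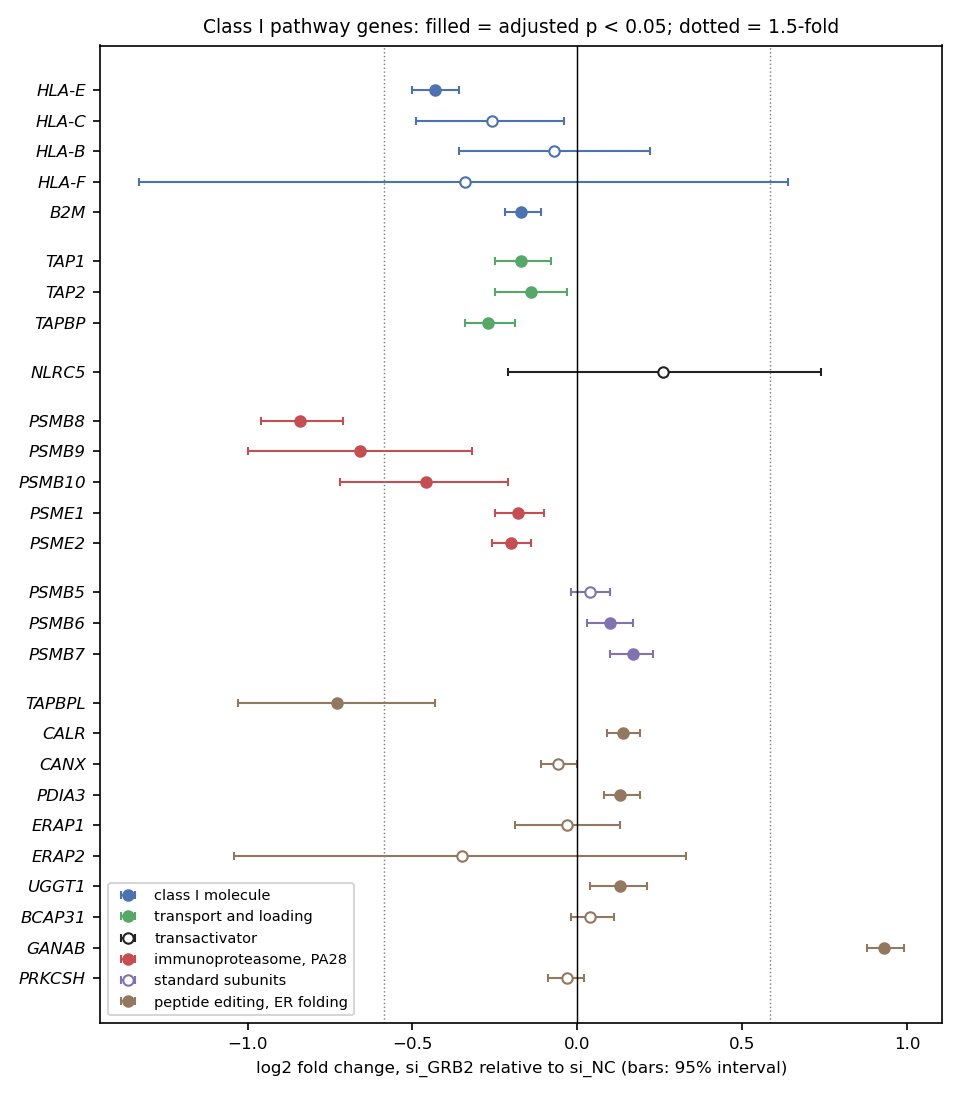
Log2 fold change of si_GRB2 relative to si_NC (horizontal axis) with its 95% interval for the class I genes and for the proteasome and endoplasmic reticulum lists, 1 row per gene, filled where the adjusted p was under 0.05. PSMB8 stands at −0.84 and GANAB at 0.93, outside the 1.5-fold lines, while the 9 class I genes lie between −0.43 and 0.26.

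Among 13 factors that act on class I promoters, 7 were lower, 1 was higher and 5 did not pass, against 15.5% lower and 15.2% higher among all genes, with a median log2 fold change of −0.12. The list was not split into activators and repressors. The 7 include IRF2 (log2 fold change −0.43, edgeR adjusted p = 0.00121) and EZH2 (−0.17, edgeR adjusted p = 0.00637). IRF1, the interferon-induced factor that binds interferon response elements, was at 27.3, 26.9 and 29.7 CPM in si_NC and at 18, 18.5 and 19.2 CPM in si_GRB2. All si_GRB2 libraries were below all controls, and IRF1 was a DEG at 0.664 times the control level (log2 fold change −0.59, standard error 0.06, edgeR adjusted p = 9.27e-07). The fold was close to the DEG limit, and IRF1 was under it without si_NC replicate 3 (−0.55) or si_GRB2 replicate 1 (−0.57), although it passed the test in each of these fits. It shares exon bases on the opposite strand with AC116366.7, whose reads came to 129% of its own and whose log2 fold change was 0.01. NFYC, a subunit of NF-Y, fell by 0.30 (standard error 0.05), RELA, the activating subunit of NF-κB, fell by 0.20 (standard error 0.04), and ATF1, of the CREB/ATF family, rose by 0.42 (standard error 0.07). The edgeR adjusted p of these were 0.000117, 0.00119 and 0.000151.

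Of 12 interferon signalling genes, feedback inhibitors included, 3 were lower, 1 was higher and 8 did not pass, with a median log2 fold change of −0.07. These counts are near the background, in which 15.5% of all genes tested were lower and 15.2% higher. IFNAR1 and IFNAR2, the chains of the type I interferon receptor, fell by 0.20 and 0.21 on the log2 scale (standard errors 0.04 and 0.05). IFNAR2 shares 2038 exon bases on the same strand with the read-through gene IFNAR2-IL10RB, which had 141% of its reads. The other gene called lower was SOCS1, a feedback inhibitor (log2 fold change −0.49, standard error 0.16, edgeR adjusted p = 0.0241). The kinase JAK1 rose by 0.22 (standard error 0.04).

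Of 30 interferon-stimulated genes, 22 could be tested, 8 were lower, 2 were higher and 12 did not pass, against 15.5% lower and 15.2% higher among all genes, with a median log2 fold change of −0.26. The 5 DEGs were all lower, and 1.69% of all genes were DEGs in that direction. GBP1 and GBP2, guanylate-binding proteins, fell by 0.90 and 0.66 on the log2 scale (standard error 0.11 each), with GBP1 at 9.02, 8.99 and 8.16 CPM in si_NC and at 4.25, 4.63 and 5.18 CPM in si_GRB2. The other DEGs were DTX3L (−0.59), IFI35 (−0.74) and PARP14 (−1.02), of which PARP14 had 15 to 46 reads per library and was no longer a DEG in 4 of 6 fits with 1 library left out. OAS3 fell by 0.27 (standard error 0.08, edgeR adjusted p = 0.0131). IFIH1, a sensor of double-stranded RNA, rose by 0.20 (standard error 0.05, edgeR adjusted p = 0.00631), as did OASL by 0.87 with 14 to 32 reads (standard error 0.26, edgeR adjusted p = 0.0172). OASL lost its call with DESeq2 (adjusted p = 0.0914) and without si_NC replicate 1, si_GRB2 replicate 1 or si_GRB2 replicate 3 (up to 0.0811), and OAS3 without si_NC replicate 2, si_GRB2 replicate 1 or si_GRB2 replicate 3 (up to 0.0629).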

How the data were processed

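RNA was captured on poly(A) beads and sequenced as strand-marking (dUTP) libraries, 3 si_NC and 3 si_GRB2. The authors trimmed adaptors with FASTX-Toolkit, used HISAT2 for alignment to GRCh38 and retained reads with 1 mapping position. They deposited the count of reads per gene, not normalized, and FPKM rounded to 2 decimals. The counting tool, its use of strand, the annotation and the gene lengths are not given in the sources used here. The groups followed the descriptions of the libraries.

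Counts were analysed in edgeR 4.0.16 under R 4.3.3. After filterByExpr, which left 15801 genes, and TMM scaling, si_GRB2 was compared with si_NC by the quasi-likelihood test without covariates, with Benjamini-Hochberg adjustment over all genes kept. The standard error is the log2 fold change divided by the square root of F. A gene passed at an adjusted p under 0.05. CPM are TMM-normalized. The same comparison was repeated with DESeq2 1.42.0, with edgeR on DESeq2 size factors, with no filter, at least 10 reads in every library, a replicate block, limma 3.58.1 on log2(FPKM + 1), log2(FPKM + 0.1) and log2(FPKM + 1) for genes averaging 1 FPKM or more, and with 1 library omitted at a time. The FPKM fits understate changes of low genes. The fit was tested on 1 simulated data set, in which unchanged genes made up a larger share of the calls than the nominal level. Positions came from GENCODE 44 (99.7% of identifiers matched) and promoters from RefSeq. Other tables and figures were made with pandas 2.3.3, numpy 2.4.6 and matplotlib 3.10.9 in Python 3.11.15.

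The genes and all lists were chosen with earlier results of these data known. Named are the 9 genes, GRB2, the DEGs of each list with up to 3 further genes of lowest adjusted p under 0.05, and, for HLA-B and B2M, the 3 genes with the highest correlation. IRF2, EZH2 and SOCS1 are named beyond this rule, after their values were seen, and are not counted among the refits. Intervals cover the spread between libraries only. The values of 2 genes of the lists are not reported here.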

Additional observations from a re-analysis of the deposited data

How the results depend on the processing

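HLA-E, PSMB8, IRF1, GANAB and GRB2 kept direction and call at an adjusted p under 0.05 in every fit, and of 484 refits of the 35 genes named from the other lists, 418 kept both, 66 lost the call and 0 changed sign. Of the DEGs, GANAB, PSMB8, PROCR and GRB2 met the DEG limits in every fit. IRF1 did not in 5 of 14, PSMB9 in 7 of 14, PARP14 in 7 of 13 and DTX3L in 3 of 13, the FPKM fits among them. The same held for CDH5 in 4 of 14. TAPBPL and IFI35 missed the limits in 3 of 14 and GBP1 and GBP2 in 2 of 13, all of them FPKM fits. Leaving out each library in turn, HLA-B ranged from −0.15 to 0.03, HLA-F from −0.71 to 0.02 and TAP2 from −0.17 to −0.10 on the log2 scale. HLA-B changed sign without si_NC replicate 1 (0.03) or si_GRB2 replicate 3 (0.02) and HLA-F without si_GRB2 replicate 1 (0.02). TAP2 lost its call in 3 of these fits, with DESeq2 (−0.14) and in the FPKM fits, 7 of 14 alternative fits in all. The 5 genes called among the 9 were 4 or 5 in the fits with 1 library left out. HLA-DOB lost its call in 5 of them, so that the count of class II genes ranged from 0 to 1, and it was 0 with DESeq2 and with no filter. The count of standard subunits ranged from 1 to 2.

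Limma on FPKM called fewer genes. In the order log2(FPKM + 1), log2(FPKM + 0.1) and log2(FPKM + 1) restricted to genes averaging 1 FPKM or more, it called 1400, 1534 and 2689 genes at an adjusted p under 0.05 (4838 by edgeR), of which 40.4%, 39.6% and 36.7% were lower, and 79, 144 and 96 DEGs. It called 1, 1 and 2 of the 9 genes, with B2M at −0.12, −0.12 and −0.12, TAP1 at −0.12, −0.12 and −0.12, TAP2 at −0.08, −0.10 and −0.08, and TAPBP at −0.22 and −0.23 in the first and the second. It called 2 and 2 folding genes, GANAB and TAPBPL, and 1 and 1 immunoproteasome genes, PSMB8, in the first and the second. In the third it called all 5 immunoproteasome genes, and CALR and PDIA3 besides GANAB and TAPBPL. PSMB9, PSMB10, PSME1, PSME2, CALR and PDIA3 each lost the call in 2 of 14 alternative fits, the first and the second. It called 0, 0 and 1 standard subunits, 3, 3 and 4 promoter factors, 1, 1 and 1 interferon signalling genes, 4, 5 and 3 interferon-stimulated genes, and 0 class II genes. The TMM factors of the count fit were 0.988, 0.976 and 0.984 in si_NC and 1.015, 1.02 and 1.018 in si_GRB2. The fits on FPKM did not use these factors. Their part in the differences between the fits was not tested, nor was any other cause.

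Replicate numbers did not clearly pair the libraries. Deviations of libraries with the same number correlated at 0.232, −0.095 and 0.08, and not every library correlated best with its own number. This check cannot exclude pairing, because deviations from a mean of 3 libraries depend on each other. With the number as a replicate block, 4807 genes and 459 DEGs were called, and HLA-C passed (−0.26, adjusted p = 0.0449), so that 6 of the 9 were lower. The intervals of HLA-F, NLRC5 and HLA-B include 0 and changes in either direction.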

Other observations

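The class II genes, which present peptides taken up from outside the cell or serve that presentation, were mostly silent in this line. The most abundant by CPM was HLA-DMA, at means of 9.68 CPM in si_NC and 9.28 CPM in si_GRB2. Of the 13 class II genes, 5 could be tested and 1 was lower, against 15.5% of all genes. This was HLA-DOB, at 6.03 ± 0.481 CPM in si_NC and 4.78 ± 0.253 CPM in si_GRB2 (SD, n = 3 each, log2 fold change −0.33, standard error 0.12, edgeR adjusted p = 0.0431), whose call was lost in 5 of 6 fits with 1 library left out. Its exons overlap those of the read-through gene XXbac-BPG246D15.9, which had 603% of its reads. Among 14 class I-like genes, 8 could be tested, 1 was lower, 0 were higher and 7 did not pass, near the 15.5% lower and 15.2% higher among all genes, with a median log2 fold change of −0.11. The 1 was PROCR, the endothelial protein C receptor, whose fold resembles that of class I but which presents no peptide, at a log2 fold change of −0.90 (standard error 0.05).

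Of the 9 genes, 7 lie on chromosome 6 between 29722775 and 33314284. Among the 114 other genes tested in that stretch, 25 (21.9%) were lower and 7 (6.14%) were higher, with a median log2 fold change of −0.06. On the rest of chromosome 6, 87 of 657 tested genes (13.2%) were lower and 92 (14%) higher, with a median of 0.00.

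Over the 6 libraries, the genes most like B2M in log2 CPM, among 10623 with a mean of at least 5 CPM, were NPM1 (Pearson r = 0.998), UNG (r = 0.996) and RNASEH2C (r = 0.996). In all, 369 genes had r above 0.95 with B2M. HLA-B had 6 such genes among 10624, led by KHNYN (r = 0.983), FAM168B (r = 0.979) and THUMPD2 (r = 0.973). The libraries fall into the 2 groups and share their depth and scaling, so these values are descriptions.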
